A study of Mus musculus with 11 samples.

Results

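The genes described here are 3 activators of the circadian clock (Arntl, Npas2 and Clock) and 7 of their targets (Per1, Per2, Per3, Nr1d1, Dbp, Tef and Bhlhe41). They were taken by gene symbol, and all 10 were measured among 23185 genes with 1 symbol. The members were selected on their measured levels in these 4 groups, with earlier results known, so their differences in every comparison are given as a description and not as a test. In the order named, their features carry the Entrez gene numbers 11865, 18143, 12753, 18626, 18627, 18628, 217166, 13170, 21685 and 79362.

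The mammalian circadian clock is a feedback loop of transcription. The activators Arntl (also called Bmal1), Clock and its paralog Npas2 pair with each other and switch on genes that carry E-boxes, among them the Per and Cry genes, whose proteins block the activators in return. A second loop runs through the nuclear receptor Nr1d1 (REV-ERB alpha), which is switched on by the activators and represses Arntl at ROR elements. Over the day, activator transcripts such as Arntl and target transcripts such as Nr1d1 and Dbp therefore peak in opposite phases, in liver as in most other tissues.

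Mouse liver cells were sorted on YFP, a fluorescent lineage label of the biliary epithelium, and measured on Affymetrix MoGene 2.0 ST arrays. YFP+ DDC cells came from mice on the DDC diet (diethoxycarbonyl-dihydrocollidine, a cholestatic injury) for 5 weeks (3 arrays). YFP+ CDE cells came from mice on the CDE diet (choline-deficient and ethionine-supplemented, a steatotic injury), also 3 arrays. YFP+ UTR cells (2 arrays) and YFP- cells (3 arrays) came from untreated mice. The protocol in the labels, which is the same text for every sample, mentions 4 mice on the DDC diet and does not say whether each array holds 1 animal. The labels do not give the promoter behind the YFP label, the strain, the age of the mice, the length of the CDE diet or the time of day at which livers were taken. Clock transcripts change over the day, and the part of harvest time in the results was not tested. Values are the authors' log2 levels, and base 2 was inferred from their range of 2.55 to 13.57. Array medians ran from 5.63 to 5.77, and the lower quartile and the median of all values were 4.33 and 5.72.

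The label was checked on bile duct and other markers. The 4 biliary markers analysed here (Krt19, Krt7, Epcam and Sox9) averaged 10.42 to 10.63 in DDC, 10.24 to 10.46 in CDE, 10.44 to 10.54 in UTR and 4.89 to 8.13 in YFP-. The 5 endothelial markers averaged 4.97 to 5.48 in DDC, 5.15 to 5.60 in CDE, 5.51 to 6.04 in UTR and at least 10.42 in YFP-, and the 5 lymphocyte markers averaged at most 4.51 on any YFP+ array. The YFP- arrays were unlike each other: their lymphocyte markers averaged 4.42, 10.25 and 4.67 on replicates 1, 2 and 3, and their biliary markers 8.13, 5.27 and 4.89. Hepatocyte transcripts did not separate the sorts as cleanly. Of 8 hepatocyte markers, 3 had higher and 5 lower means in UTR than in YFP-. Ttr, a liver plasma protein, averaged 12.95 in UTR and 11.42 in YFP-, and Alb 12.40 in UTR and 11.60 in YFP-. Of those lower in UTR, Cyp2e1 averaged 5.23 in UTR and 8.07 in YFP-, and Apoc3 4.81 in UTR and 8.35 in YFP-. All 5 macrophage and monocyte markers were lower in UTR than in YFP- without overlap, where 20.5% of all genes were. Among them Csf1r and Cd68 averaged 8.72 and 7.36 in UTR, above the median of all values, and 10.44 and 11.02 in YFP-.

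The promoter windows that hold clock motifs are shown first, since clock factors are known to bind DNA through motifs of these kinds. Promoters came from RefSeq (build GRCm38.p6, 250 bases before to 50 bases after each annotated start), where 9 of the 10 members had 14 promoters. Per2 was not searched here. Both strands were searched for the E-box CACGTG, which the activators bind, the D-box TTANGNAA, which Dbp and Tef bind, and the ROR element TNGGTCA, which Nr1d1 and its activating counterpart Rora bind. Of all 32851 promoters, 7.15% held the E-box, 11.5% the D-box and 11% the ROR element, against 4, 3 and 4 of the 14 member promoters. By gene, each motif was found in 3 of the 9 members searched. E-boxes lay in Per1, Tef and Bhlhe41, D-boxes in Per1, Per3 and Arntl, and ROR elements in Arntl, Per3 and Tef. Npas2, Clock, Nr1d1 and Dbp held none of the 3 motifs in the promoters searched. The 2 Arntl promoters overlap and share an ROR window, so the promoters are not independent. A match describes letters and is not a measured binding site. The Per1 matches lie in the first of its 2 promoters, and the start named for Per1 below is that one. The following windows of 30 bases, 5′ to 3′ on the gene's strand with the motif in capitals, show an ROR element in the activator and E-boxes and D-boxes in the targets.
Arntl, ROR element 30 bases after the second start, chr7:113207530-113207559, plus strand: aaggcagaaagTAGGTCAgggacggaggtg
Per1, E-box 166 bases before the start, chr11:69098771-69098800, plus strand: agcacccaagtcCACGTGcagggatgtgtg
Tef, E-box 127 bases before the first start, chr15:81802534-81802563, plus strand: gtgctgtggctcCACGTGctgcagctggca
Bhlhe41, E-box 153 bases before the start, chr6:145865556-145865585, minus strand: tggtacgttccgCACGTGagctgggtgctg
Per3, D-box 205 bases before the start, chr4:151044852-151044881, minus strand: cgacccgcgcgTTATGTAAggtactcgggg
Per3, D-box 158 bases before the start, chr4:151044805-151044834, minus strand: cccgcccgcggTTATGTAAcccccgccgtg

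In cells of the biliary lineage on the DDC diet, several activators were lower and several targets higher than on the CDE diet. The partners Arntl and Npas2 were about 3 to 4 times lower than on the CDE diet, and Per2, Per3, Dbp, Tef and Bhlhe41 were about 2 to 3 times higher. Clock, Per1 and Nr1d1 differed less, and against untreated cells Nr1d1 lay at 0.02 and Per1 at -0.28 (log2). CDE cells lay close to untreated cells in the activators, and 6 of 7 targets had lower means in CDE, although limma's test passed 0 genes there. The plot of each array's values shows the DDC arrays apart from the other YFP+ arrays in these 7 genes. In sorted bulk samples, fewer cells that express a gene and less RNA per cell cannot be told apart.

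**Figure D1:**
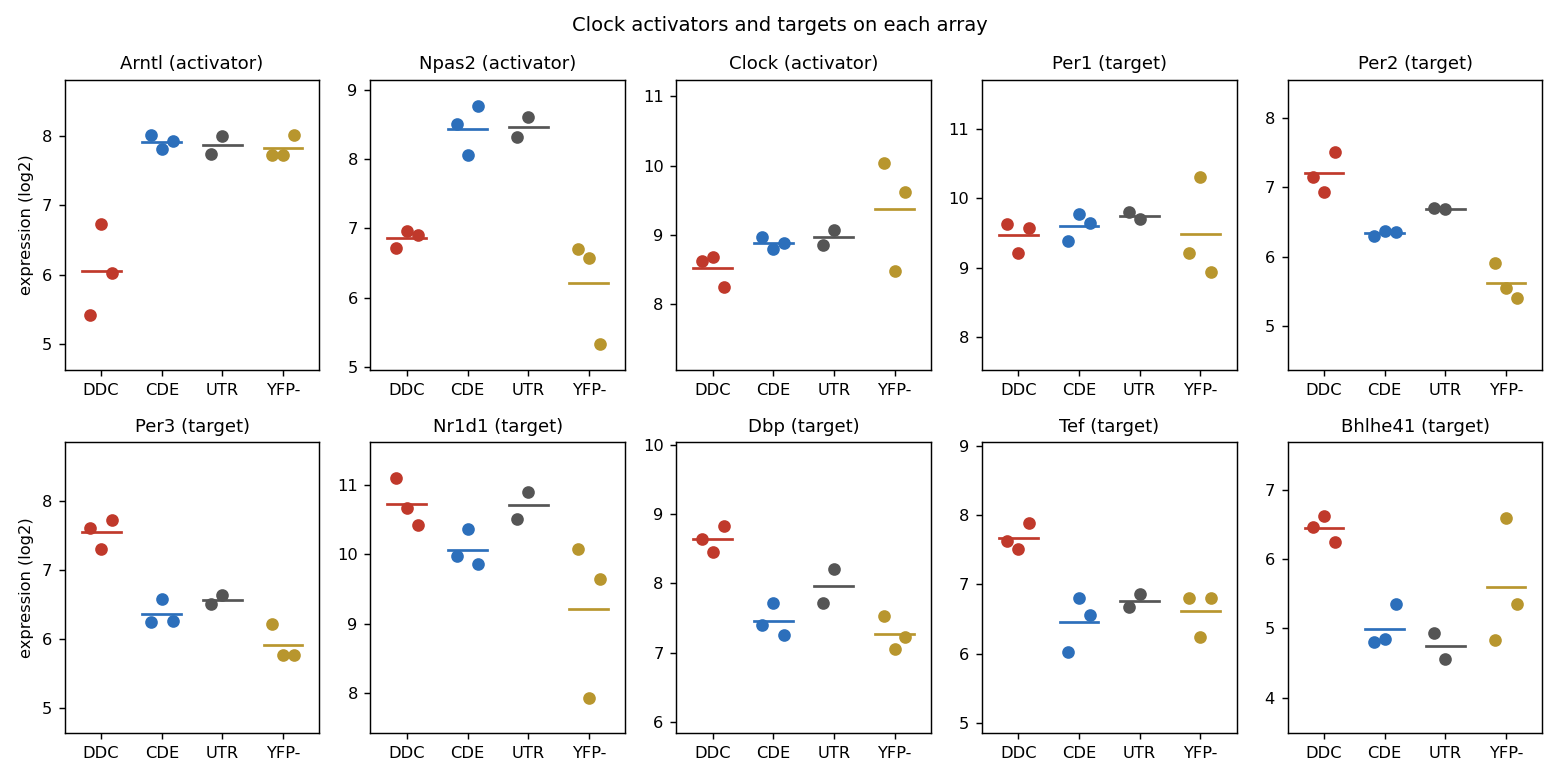
Expression (log2) of the 3 activators and 7 targets on each of the 11 arrays, by group, with replicates 1 to 3 from left to right within a group and the group mean as a bar. Every panel spans the same number of log2 units. DDC arrays lie below all CDE and UTR arrays for Arntl, Npas2 and Clock, and above them for Per2, Per3, Dbp, Tef and Bhlhe41.

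Arntl, the partner of Clock and Npas2, read 5.41, 6.74 and 6.02 on the DDC arrays, 8.02, 7.81 and 7.93 on the CDE arrays and 7.75 and 8.01 on the UTR arrays. All 3 DDC arrays were lower than any CDE or UTR array, and DDC replicate 1 was the lowest. The difference was -1.86 ± 0.29 from CDE (SE, log2, a level 3.64-fold lower) and -1.82 ± 0.32 from UTR. Leaving out any 1 of the 8 YFP+ arrays kept the first between -2.21 and -1.54.

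Npas2, which can take the place of Clock as the partner of Arntl, read 6.72, 6.96 and 6.90 in DDC, 8.50, 8.06 and 8.76 in CDE and 8.32 and 8.61 in UTR. The DDC arrays were again the low ones, with little spread among them. The difference was -1.58 ± 0.18 from CDE (2.99-fold lower) and -1.61 ± 0.20 from UTR. Clock itself read 8.62, 8.69 and 8.25 in DDC, 8.96, 8.79 and 8.88 in CDE and 8.85 and 9.07 in UTR. Each DDC array was again below every CDE and UTR array, but the difference was small, at -0.36 ± 0.13 from CDE and -0.44 ± 0.15 from UTR.

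Among the targets that feed back on the loop, Per2 and Per3 encode partners of the Cry repressors. Per3 read 7.61, 7.31 and 7.72 in DDC, 6.25, 6.59 and 6.27 in CDE and 6.51 and 6.64 in UTR, a difference of 1.18 ± 0.14 from CDE (2.26-fold) and 0.97 ± 0.16 from UTR. Per2 read 7.16, 6.93 and 7.52 in DDC, 6.30, 6.36 and 6.36 in CDE and 6.70 and 6.69 in UTR. Both genes were highest on DDC replicate 3, and each DDC array was above every CDE and UTR array. Per2 was 0.86 ± 0.14 above CDE and 0.51 ± 0.16 above UTR, which lay between the diets.

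Per1, the third gene of the family, did not follow them. It read 9.63, 9.21 and 9.57 in DDC, 9.39, 9.78 and 9.65 in CDE and 9.80 and 9.70 in UTR. DDC and CDE overlapped, with a difference of -0.13 ± 0.15, and DDC lay -0.28 ± 0.16 from UTR. Per1 is known to answer also to cAMP and glucocorticoid signals, and their part in its levels here was not tested. Bhlhe41 (Dec2), a repressor that competes for E-boxes, read 6.47, 6.62 and 6.25 in DDC, 4.81, 4.84 and 5.35 in CDE and 4.94 and 4.56 in UTR. Its CDE and UTR levels were dim, between the lower quartile and the median of all values, and its DDC levels were above that median. The difference was 1.45 ± 0.18 from CDE (2.73-fold) and 1.70 ± 0.20 from UTR (3.24-fold), the largest difference among the 7 targets in both comparisons.

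Nr1d1, the repressor of Arntl, was set apart from CDE but not from untreated cells. It read 11.11, 10.68 and 10.42 in DDC, 9.98, 10.37 and 9.86 in CDE and 10.52 and 10.91 in UTR. The DDC arrays were above every CDE array by a narrow margin and overlapped with UTR. The difference was 0.67 ± 0.21 from CDE and 0.02 ± 0.23 from UTR.

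Dbp and Tef encode PAR bZIP factors that carry the rhythm to output genes through D-boxes. Dbp read 8.64, 8.45 and 8.83 in DDC, 7.40, 7.72 and 7.25 in CDE and 7.72 and 8.20 in UTR. The difference was 1.18 ± 0.17 from CDE (2.27-fold) and 0.68 ± 0.19 from UTR. Tef read 7.62, 7.51 and 7.89 in DDC, 6.02, 6.80 and 6.55 in CDE and 6.67 and 6.86 in UTR. It was 1.22 ± 0.20 above CDE (2.32-fold) and 0.91 ± 0.22 above UTR. Both genes were highest on DDC replicate 3 and lay above every CDE and UTR array on each DDC array.

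Against CDE, all 3 activators were lower in DDC without overlap, and 6 of 7 targets were higher without overlap. Over all genes, 10.6% were lower and 9.64% higher without overlap in this comparison. In the limma fit of the 8 YFP+ arrays, 2 activators were lower and 5 targets higher at an adjusted p under 0.05 (a gene so found is termed called), where 0.742% of all genes were called lower and 0.418% higher. Against UTR, all 3 activators were lower without overlap, 5 targets higher and 1 (Per1) lower, where 11.8% of all genes were lower and 12.7% higher. There limma called 1 activator lower (Npas2) and 1 target higher (Bhlhe41), where 0.0647% of genes were called lower and 0.0949% higher. Since the members were chosen with these contrasts known, nothing is read from their shares. Both comparisons rest on the same 3 DDC arrays. The calls also depend on single arrays: 0 of the 10 members were called against CDE without CDE replicate 1 or without DDC replicate 1, 1 without CDE replicate 3, and 0 with all 11 arrays in 1 fit. Leaving out CDE replicate 2, DDC replicate 2, DDC replicate 3 or either UTR array gave 4, 4, 3 and 5. Against UTR, 0 members were called without any 1 of the DDC arrays, without CDE replicate 1 or without UTR replicate 2, and 1 without CDE replicate 3 or UTR replicate 1.

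**Figure D2:**
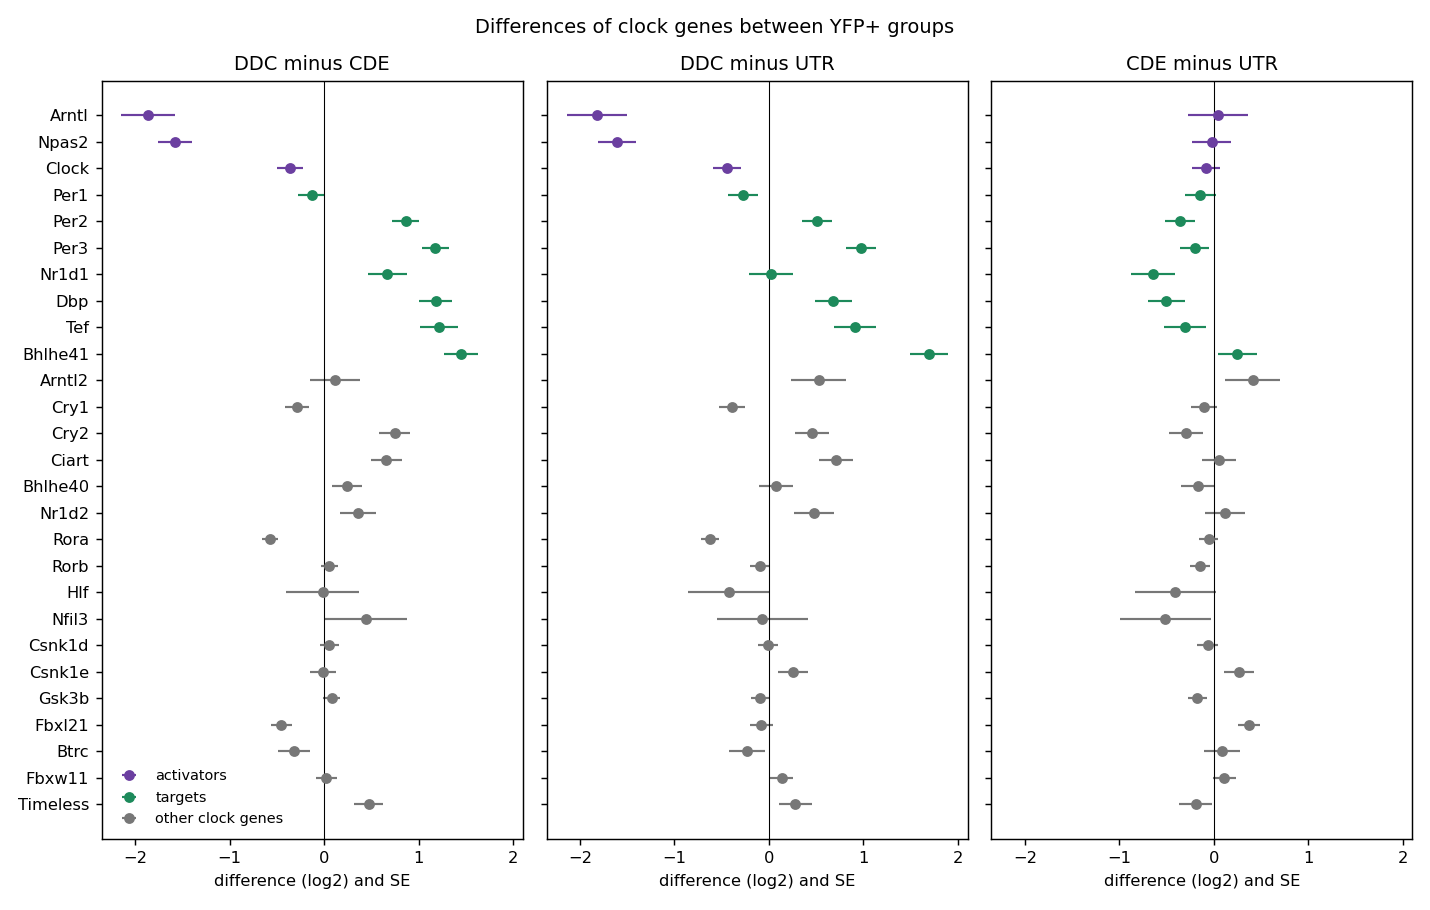
Differences (log2) with SE from the limma fit of the 8 YFP+ arrays for the 10 members and 17 other clock genes, in 3 comparisons. Activators lie to the left of 0 and most targets to the right in both DDC comparisons, while in CDE minus UTR the activators lie near 0 and 6 of 7 targets to the left of it.

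Activators were set against targets on each array as a single value, a restatement of the members' own levels. Each gene was first taken as its deviation from the mean of the 3 YFP+ groups, so that no gene's level was compared with another's. The mean deviation of the activators minus that of the targets was -1.68, -0.91 and -1.53 on the DDC arrays, 1.06, 0.45 and 0.92 on the CDE arrays, 0.48 and 0.64 on the UTR arrays and 0.66, 0.26 and 0.37 on the YFP- arrays. Since the 3 YFP+ group means sum to 0 by construction, the signs carry no information of their own. The DDC arrays lay below all others. It averaged -1.37 ± 0.41 in DDC (SD, n = 3), 0.81 ± 0.32 in CDE (SD, n = 3) and 0.56 ± 0.11 in UTR (SD, n = 2). Of the total, activators averaged -0.85 and targets 0.52 in DDC, against 0.42 and -0.40 in CDE and 0.44 and -0.12 in UTR.

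**Figure D3:**
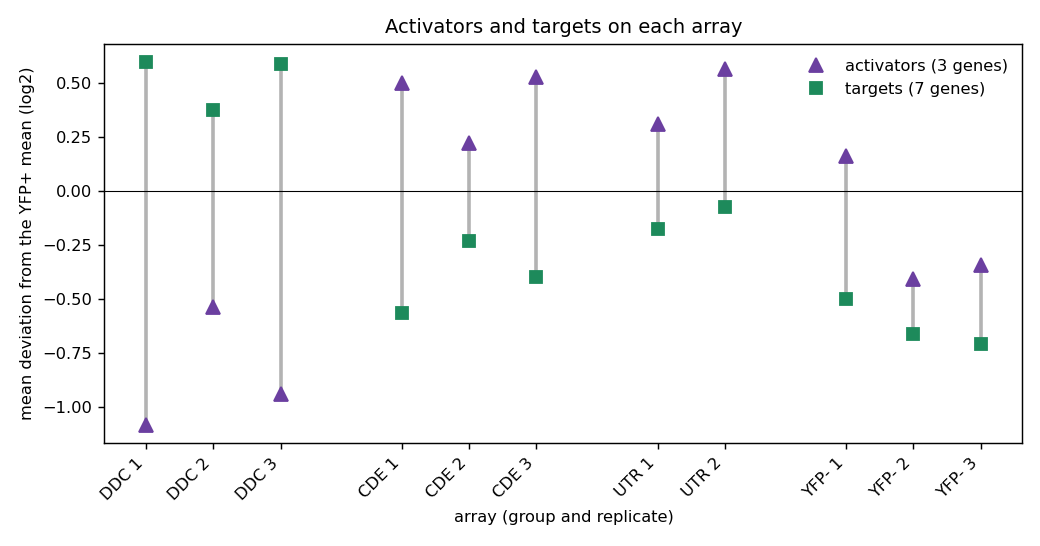
Mean deviation (log2) from the YFP+ mean of the 3 activators (triangles) and the 7 targets (squares) on each array, joined by a line. Targets lie above activators on the 3 DDC arrays, and activators lie above targets on the other 8.

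The DDC arrays also differed among themselves in which genes stood highest. Of the 7 targets, 4 were highest on DDC replicate 3 (Per2, Per3, Dbp and Tef), 2 on replicate 1 (Per1 and Nr1d1) and 1 on replicate 2 (Bhlhe41). Replicate 1 combined the lowest Arntl of all arrays with the highest Nr1d1, while replicate 3 had the lowest Clock. Replicate 2 had the highest Arntl of the 3 and the smallest gap between activators and targets.

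CDE was set against untreated cells to ask whether the other diet moved the same genes. The activators differed little: Arntl by 0.04 ± 0.32, Npas2 by -0.02 ± 0.20 and Clock by -0.08 ± 0.15. Of the 7 targets 6 were lower in CDE, with a median difference of -0.31 against 0.00 over all genes. The differences were -0.64 ± 0.23 for Nr1d1, -0.50 ± 0.19 for Dbp and -0.36 ± 0.16 for Per2. Nr1d1 and Per2 were the 2 targets lower in CDE without overlap, where 10.5% of all genes were lower in this way. Limma called 0 genes in this comparison (0% in either direction), with 1492 genes at an unadjusted p under 0.05, and so 0 members (2 of them at an unadjusted p under 0.05). Without UTR replicate 1 limma called 46 genes, 0 of them members. For Dbp and Per2 the order of the means was thus DDC, UTR and CDE from high to low, but the 2 UTR arrays of Dbp, at 7.72 and 8.20, met the highest CDE array, at 7.72.

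The rest of the clock was followed with a list of further clock genes, 17 of them analysed here. In DDC against CDE limma called 1 of the 17, lower, and 0 higher (6 at an unadjusted p under 0.05), with a median difference of 0.05 against 0.01 over all genes. Over all 23185 genes, 0.742% were called lower and 0.418% higher, and 3555 had an unadjusted p under 0.05. The 1 clock gene called was Rora, the nuclear receptor that activates Arntl at the same ROR elements that Nr1d1 blocks. It read 8.71, 8.83 and 8.82 in DDC, 9.45, 9.32 and 9.30 in CDE and 9.42 and 9.40 in UTR, a fall of -0.57 ± 0.09 against CDE (adjusted p = 0.0294, limma). The call was lost when any 1 of the 6 DDC and CDE arrays was left out (adjusted p of at most 0.117, difference -0.60 to -0.53). Against UTR Rora lay at -0.63 ± 0.10, with an adjusted p of 0.0685 (limma).

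Among the repressors outside the members, Cry2 and Ciart were higher in DDC without passing. Cry2, the partner of the Per proteins, read 7.61, 7.24 and 7.15 in DDC, 6.61, 6.63 and 6.51 in CDE and 6.63 and 7.13 in UTR, and its difference from CDE was 0.75 ± 0.16 (adjusted p = 0.0772, limma). Ciart (Chrono), a repressor of the activators, read 6.92, 6.42 and 6.39 in DDC, 5.92, 5.76 and 6.08 in CDE and 5.97 and 5.76 in UTR, a difference of 0.66 ± 0.16 from CDE (adjusted p = 0.107). The DDC arrays of both genes were above all CDE and UTR arrays. Fbxl21, a ubiquitin ligase subunit that acts on Cry proteins, lay at -0.45 ± 0.11 from CDE without overlap (adjusted p = 0.0992, limma). It averaged 5.03 in DDC, 5.48 in CDE and 5.11 in UTR, all below the median of all values. From UTR, DDC thus differed by -0.08 ± 0.12 and CDE by 0.37 ± 0.12. Outside the members, E-boxes were found in Ciart and Cry1, and a window of each is shown with the same marks.
Ciart, E-boxes from 58 bases before the start, chr3:95882262-95882291, minus strand: ggaggCACGTGcagaaccgCACGTGtctgg
Cry1, E-box 60 bases before the start, chr10:85185097-85185126, minus strand: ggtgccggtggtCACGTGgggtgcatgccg

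Other parts of the loop differed less. Cry1 lay at -0.28 ± 0.12 in DDC against CDE, the opposite sign to Cry2, with overlapping arrays. Nr1d2 (REV-ERB beta) was at 0.36 ± 0.19, Bhlhe40 (Dec1) at 0.24 ± 0.16 and Nfil3, the repressor that competes with Dbp at D-boxes, at 0.44 ± 0.43, with a value of 8.77 on DDC replicate 1 against 7.64 and 7.08 on the others. The casein kinases Csnk1d (0.05 ± 0.10) and Csnk1e (-0.01 ± 0.14), which mark Per proteins for turnover, and Gsk3b (0.08 ± 0.09) differed by less than 0.1. Hlf, the third PAR bZIP gene, differed by -0.02 ± 0.38 and read 5.19 and 6.93 on the 2 UTR arrays. Of the 17 genes, limma called 0 in DDC against UTR and 0 in CDE against UTR (4 and 1 at an unadjusted p under 0.05). Over all 23185 genes, 2417 and 1492 were at an unadjusted p under 0.05 in these comparisons.

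**Figure D4:**
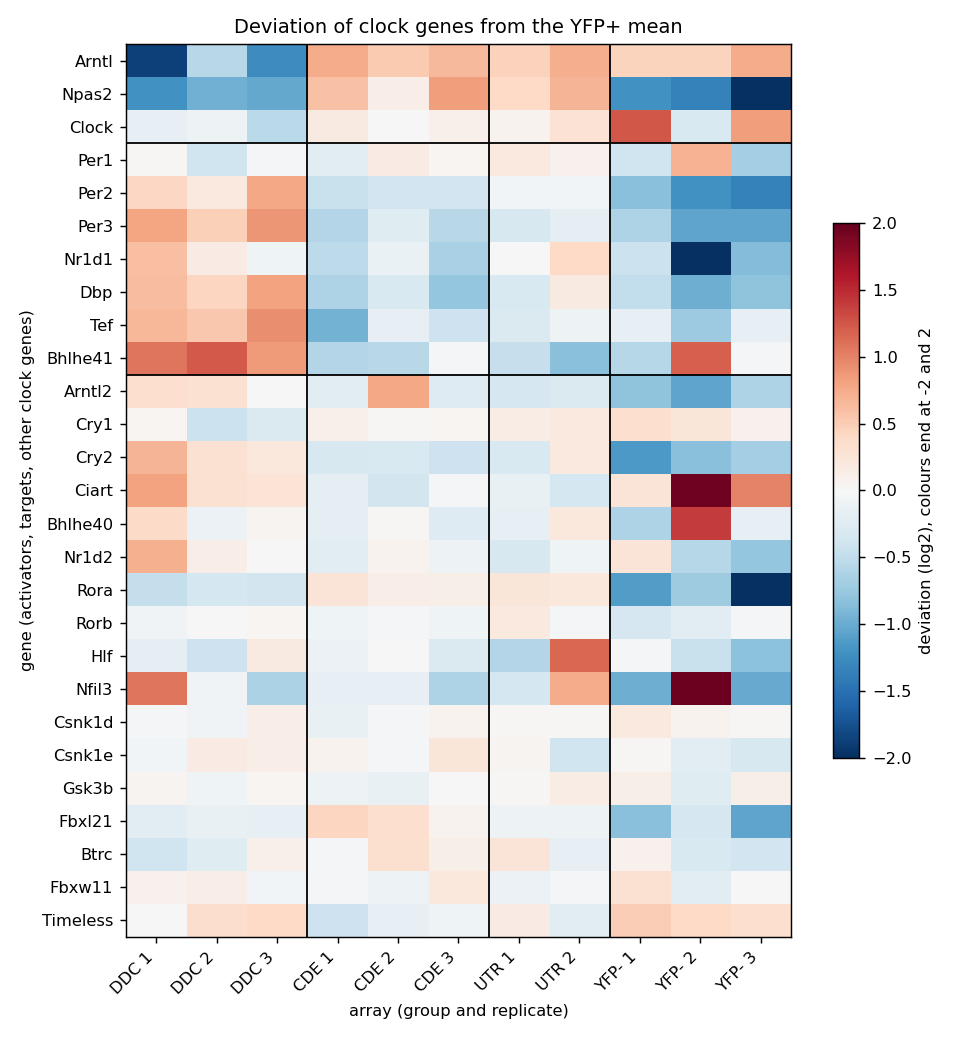
Deviation (log2) of each of the 27 clock genes from the mean of the 3 YFP+ groups on the 11 arrays, red above and blue below. Among YFP+ arrays the DDC columns are blue for Arntl, Npas2 and Rora and red for Per3, Dbp, Tef, Bhlhe41, Cry2 and Ciart, and the rows of Csnk1d, Csnk1e and Gsk3b are pale.

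Genes that other signals share with the clock were listed too. Of 7 clock output genes, limma called 0 in DDC against CDE. An unadjusted p under 0.05 was found for 3 of them, and for 3555 of the 23185 genes tested. These 3 were Noct, a rhythmic phosphatase (0.72 ± 0.18), the cell cycle inhibitor Cdkn1a (0.54 ± 0.14) and the deubiquitinase Usp2 (0.29 ± 0.12), while Nampt, the NAD salvage enzyme, was at -0.46 ± 0.21. Of 5 glucocorticoid response genes 0 were called and all 5 were negative, with a median of -0.27. Fkbp5 was negative in sign only, at -0.0018 ± 0.19. The kinase Sgk1, at -0.46 ± 0.18, was the 1 gene of the list at an unadjusted p under 0.05, and Klf9, a clock and glucocorticoid target, was at -0.53 ± 0.26. The mean of that list was 7.08 to 7.54 on the DDC arrays, 7.48 to 7.62 on the CDE arrays and 7.68 to 7.91 on the UTR arrays. Of 11 immediate early and CREB response genes 0 were called and 10 were positive, with a median of 0.44 (6 at an unadjusted p under 0.05). The stress factor Atf3 averaged 9.99 in DDC, 8.50 in CDE and 9.61 in UTR. It was 2.82-fold higher in DDC than in CDE (SE 0.56, log2). The gap between these arrays was narrow, with the lowest DDC array at 8.69 and the highest CDE array at 8.58. DDC differed from UTR by 0.39 ± 0.63 in Atf3, with overlapping arrays. Against CDE, the orphan receptor Nr4a1 was at 1.29 ± 0.39 and the kinase Sik1 at 0.73 ± 0.15. Their list mean was 9.73, 9.47 and 8.79 on DDC replicates 1, 2 and 3, 8.63 to 8.92 in CDE and 8.67 to 9.37 in UTR. The part of these signals in the clock differences was not tested.

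Markers of other cells and of division were set beside the same arrays. The 3 proliferation markers were positive in DDC against CDE (0 called, 2 at an unadjusted p under 0.05), with Mki67 at 1.27 ± 0.29 and list means of 6.24 to 7.39 in DDC, 5.05 to 6.28 in CDE and 5.28 to 5.42 in UTR. Of 8 hepatocyte markers 7 were negative, 5 were lower without overlap and 4 had an unadjusted p under 0.05. Limma called 1 of them lower, Alb (-0.73 ± 0.09, adjusted p = 0.0162). Over all genes in this comparison, 10.6% were lower without overlap and 0.742% were called lower. Of all 23185 genes, 3555 had an unadjusted p under 0.05. Hepatocyte list means were 8.21 to 8.63 in DDC, 8.44 to 9.62 in CDE and 8.14 to 8.29 in UTR. CDE replicate 2 held the highest of these means. Without it, the activator minus target value over all members was -2.37 in DDC against CDE (-2.19 with it), which does not test hepatocyte content. Macrophage and monocyte markers averaged 6.05 to 6.16 in DDC, 6.03 to 6.90 in CDE and 6.34 to 6.36 in UTR, with 0 of 5 called (2 at an unadjusted p under 0.05). The part of proliferation and of other cell types in the clock differences was not tested.

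Untreated YFP+ cells were set against YFP- cells to place these genes in the biliary lineage. Npas2 was higher in the YFP+ cells, at 8.32 and 8.61 on the UTR arrays against 6.71, 6.57 and 5.33 on the YFP- arrays, a difference of 2.26 ± 0.38 (4.80-fold). Arntl overlapped between the groups, with 7.75 and 8.01 against 7.74, 7.72 and 8.02, and a difference of 0.05 ± 0.31. Clock read 8.85 and 9.07 against 10.03, 8.48 and 9.62. Of the activators, Npas2 alone separated these groups, and the Npas2 of DDC cells, at 6.72 to 6.96, lay just above the YFP- range.

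Among targets, Per2 read 6.70 and 6.69 on the UTR arrays against 5.91, 5.54 and 5.40 on the YFP- arrays (1.08 ± 0.19), and Per3 read 6.51 and 6.64 against 6.22, 5.77 and 5.78 (0.65 ± 0.19). Nr1d1 read 10.52 and 10.91 against 10.08, 7.93 and 9.64, and the low value belongs to YFP- replicate 2, which has the lymphocyte transcripts. On that array Bhlhe41 (6.59) and Per1 (10.30) were the highest of the YFP- arrays. Limma on all 11 arrays called 1 of 3 activators and 2 of 7 targets higher and 0 lower, where 10.4% of all genes were called higher and 8.46% lower.

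Of the 17 other clock genes, 3 were called higher in untreated YFP+ cells and 1 lower, against 10.4% and 8.46% of all genes. Rora was higher by 1.79 ± 0.50 (adjusted p = 0.0342), Cry2 by 0.84 ± 0.20 (adjusted p = 0.0189), and Fbxl21 by 0.65 ± 0.20 (adjusted p = 0.0488, limma). Ciart was lower by -1.31 ± 0.40 (adjusted p = 0.0495). These 4 calls rest on the spread shared with the DDC and CDE arrays. In a fit of the 5 arrays of both groups alone 0 members and 0 of the 17 were called (limma). Leaving out 1 array gave 0 to 4 calls among the 17, with 0 without UTR replicate 2, and 2 to 6 among the members, with 6 without YFP- replicate 1.

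Of the 7 clock output genes, limma called 2 higher in untreated YFP+ cells and 3 lower. Over all genes, 10.4% were called higher and 8.46% lower in this comparison. Wee1, a mitotic kinase under E-box control, was higher by 1.28 ± 0.27 and Ppara, a nuclear receptor of fatty acid use, by 0.60 ± 0.14. Nampt lay at -2.05 ± 0.41, Noct at -1.23 ± 0.28 and Cdkn1a at -1.10 ± 0.23. Of the glucocorticoid list 2 of 5 were lower, Fkbp5 (-1.76 ± 0.52) and Sgk1 (-1.27 ± 0.31), and of the immediate early list 3 of 11, Nr4a1 (-2.82 ± 0.76), Crem (-0.62 ± 0.17) and Dusp1 (-1.25 ± 0.30). The YFP- arrays carry the endothelial and leukocyte transcripts given above, and their part in these differences was not tested.

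The genes most like the activator minus target value over the 8 YFP+ arrays were ranked among 1727 genes with a range of at least 1 log2 unit and a mean above the median of all values. Left out beforehand were the members, the other clock, clock output, glucocorticoid and immediate early lists, predicted genes, small RNAs and receptor segments. The 5 with the highest correlation were Bmi1, Gabpa, Bcl2, Igf1 and Zfp617 (Pearson r of 0.97 to 0.98), and the 5 with the lowest were Plat, Fkbp14, Lamb3, Steap4 and Ier3 (-0.96 to -0.94), with Spearman rho of 0.90 to 1.00 and -0.98 to -0.78. Bmi1, a Polycomb repressor, averaged 7.87 in DDC, 8.70 in CDE and 8.56 in UTR, and Igf1, the growth factor, 9.84 in DDC, 10.79 in CDE and 10.55 in UTR. Plat, the tissue plasminogen activator, averaged 8.48 in DDC, 7.04 in CDE and 6.88 in UTR. These correlations describe 8 arrays that fall into DDC and the rest, and any gene that sets DDC apart ranks high.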

How the data were processed

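The deposited values are log2 expression levels, 1 per feature and array for 11 arrays. How the authors corrected, normalized and summarised probes is not given in the sources used here, and base 2 was inferred from the range. Of 25206 features, 23185 could be named by a single symbol and 2021 could not. No detection call was used. Samples were grouped by the labels. The members, lists and tests were chosen with earlier results of these data known.

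Comparisons among YFP+ groups used limma 3.58.1 in R 4.3.3 (lmFit, eBayes without trend) on the 8 YFP+ arrays (5 residual degrees of freedom), since YFP- arrays vary more. UTR against YFP- used all 11 (7 residual degrees of freedom). Tests were two-sided with Benjamini-Hochberg adjustment over 23185 genes and a threshold of 0.05, and the fit was tested on simulated data. Errors are SE for differences and SD for means. The labels do not tie arrays to separate animals, so p-values reflect only how far these samples scatter, possibly for technical reasons. The number of arrays limits the precision. Some listed genes are not reported here. The text names all members, list genes past the threshold or, failing that, up to 6 of a list, and the 5 genes most and least like the members. Csnk1d, Csnk1e, Gsk3b and Hlf were added after their values were seen. Alternatives were the arrays in the fit, quantile normalization, a dim-gene filter, a variance trend, array weights, the replicate block and leaving out each array.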

Additional observations from a re-analysis of the deposited data

How the results depend on the processing

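The activator minus target value kept its sign in each comparison under the alternatives run on it, except for UTR against YFP-. There it was 0.13, and -0.33 with medians of members and 0.66 without the gene Clock. The members were selected on these levels, so a kept sign is no support for a difference. Setting array medians equal could not change the value, and neither could the replicate block in DDC against CDE. The dim-gene filter, variance trend and array weights were not run on this value. In DDC against CDE it was -2.19 (-2.64 without the gene Clock), and leaving out 1 array gave -2.42 to -2.03. In DDC against UTR it was -1.94 (-2.36 without the gene Clock, -2.26 with medians), and -2.17 to -1.78 without 1 array. In CDE against UTR it was 0.25, and 0.13 to 0.43 without 1 array. In UTR against YFP- leaving out 1 array gave 0.05 to 0.25.

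Calls were less stable than values. In DDC against CDE, 269 genes were called, 1 with all 11 arrays in the fit, 61 with the replicate block and 16 to 211 without 1 array. The 7 called members became 0 with 11 arrays, 1 with the replicate block and 0 to 5 without 1 array, and the 1 other clock gene became 0 with 11 arrays, 0 with the block and 0 to 1 without 1 array. In DDC against UTR, 37 genes were called, 0 with 11 arrays, 0 with the replicate block and 0 to 103 without 1 array, of which the last is without UTR replicate 1. The 2 called members became 0 with 11 arrays, 0 with the block and 0 to 2 without 1 array. In CDE against UTR the 0 called genes became 1 with the dim-gene filter, 1 with a variance trend, 1 with array weights and 0 to 46 without 1 array. In UTR against YFP-, 4373 genes were called, 931 in 5 arrays and 2306 to 5817 without 1 array. The 3 called members became 0 in 5 arrays and 2 to 6 without 1 array, and the 4 other clock genes 0 in 5 arrays, 0 with the replicate block and 0 to 4 without 1 array. The fit of fewer samples leaves fewer degrees of freedom, and the cause of the other changes was not tested. Where UTR keeps 1 array, its spread is taken to be that of the other groups. Same-numbered arrays of YFP+ groups correlated at -0.07 to 0.13 in their deviations from group means (7 pairs). Differently numbered arrays correlated at -0.15 to 0.15 (14 pairs). Deviations within a group sum to 0 and the groups are small, so these correlations cannot show whether same-numbered arrays belong together. The labels give only a number, and the replicate block was kept as an alternative.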
